A study of Mus musculus with 12 samples.

Results

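Collagen genes were followed in the dorsal skin of C57BL/6J mice. They were taken by name, as every gene whose symbol is Col, a number, a and a number in both deposited tables, which gave 44 of 55401 genes. Of these, 11 code for fibrillar collagens, 6 for the type IV collagens of basement membranes, 9 for fibril-associated collagens and 18 for other kinds. RNA was sequenced on day 29 in 12 libraries, 3 in each of 4 groups. The CRS+IMQ group had chronic restraint stress together with imiquimod, the IMQ group had imiquimod without stress, the CRS group had chronic restraint stress without imiquimod, and the Ctrl group had no treatment. Restraint confines the animal, and imiquimod is a Toll-like receptor agonist that gives mouse skin a psoriasis-like inflammation. No dose, schedule, sex or age stood in the labels. They also did not tie replicates to individual mice, so p-values measure only the spread between these samples, which may be technical.

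A collagen is built from 3 chains wound into a triple helix, and each chain is the product of its own gene. In the dermis, fibroblasts make most of the fibrillar collagens: type I is the main fibril of adult skin, type III mixes with it, and type V sits inside the fibril and limits its width. Type IV collagen forms the sheet under the epidermis and around vessels, type XVII spans the basal keratinocyte membrane, and type VII forms the anchoring fibrils that tie the sheet to the dermis. Fibril-associated collagens such as types XII and XIV lie on the fibril surface, and type VI builds beaded filaments around cells. Newly made chains are hydroxylated, folded by chaperones, trimmed outside the cell and cross-linked by lysyl oxidases.

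The skin markers Krt5, Krt14, Krt10, Lor, Dcn and Lum were above 0 in every library, and their summed level was 12930 to 13090 FPKM (fragments scaled by transcript length and library size) in CRS+IMQ, 5124 to 7280 in IMQ, 2374 to 2506 in CRS and 6941 to 11530 in Ctrl. Between 13248 and 13753 genes per library reached 1 FPKM, and depth, estimated roughly from the spacing of low values, was 19.2 to 21.1 in units of 1000000 fragments. The libraries of the stressed groups differed little from each other. Among genes of at least 10 FPKM, the median coefficient of variation was 3.8% in CRS+IMQ, 13.4% in IMQ, 5% in CRS and 13.3% in Ctrl. Among collagen genes of at least 1 FPKM it was 2.72% in CRS+IMQ, 28.2% in IMQ, 3.97% in CRS and 19.7% in Ctrl. Because of this gap, counts are also given for a fit in which a stressed group enters as the mean of its replicates, counted as 1 sample, so that the spread comes from unstressed libraries. It is called the averaged fit.

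The collagen sum was dominated by few genes. Col1a1, Col1a2 and Col3a1, which code for the chains of types I and III, held 68.5 to 68.8% of the summed collagen FPKM in CRS+IMQ, 39.4 to 52.5% in IMQ, 57.6 to 58.3% in CRS and 46.4 to 53.1% in Ctrl. The sum over the 44 genes averaged 2533 ± 14.4 FPKM in CRS+IMQ, 807.4 ± 270 in IMQ, 1377 ± 15.8 in CRS and 1056 ± 188 in Ctrl (SD, n = 3 each). Of the 44 genes, 30 reached 1 FPKM in at least 1 library. The other 14 did not, among them the cartilage genes Col2a1, Col9a1 and Col10a1, and their highest values in any library lay between 0.023 and 0.882 FPKM. In bulk skin, fewer cells of a type and less RNA per cell cannot be told apart.

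The first question was what restraint stress changed in imiquimod-treated skin. Most tested fibrillar collagen genes rose in CRS+IMQ relative to IMQ, with 3.6-fold to 6.11-fold higher means for Col1a1, Col1a2, Col3a1, Col5a1 and Col5a2. The basement membrane genes Col4a1 and Col4a2 and the fibril-surface gene Col12a1 rose with them, while Col20a1, Col23a1 and Col4a5 were called lower. The Col20a1 call was lost on leaving out any 1 library, and that of Col23a1 without CRS+IMQ replicate 1 or 2. Of 25 collagen genes tested, 17 were called higher, 3 lower and 5 did not pass at an adjusted p under 0.05, with limma on log2(FPKM + 1). Over all 13981 genes tested, 18.7% were called higher and 18.2% lower. By class, 6 of 7 fibrillar, 2 of 3 basement membrane, 3 of 4 fibril-associated and 6 of 11 other genes were called higher. The median log2 change was 0.79 over the collagen genes and -0.07 over all genes. A gene was tested where at least 3 of the libraries compared reached 1 FPKM, and Col4a5, Col6a6 and Col28a1 did so through the group where they were higher alone, so that their calls are a description and no support for a change. Of the other 22 tested, 15 rose and 2 fell. In the averaged fit only Col3a1, Col5a2 and Col12a1 kept their calls, all as higher. Leaving out 1 library gave 10 to 19 higher and 0 to 2 lower: 10 were higher without CRS+IMQ replicate 1, 2 or 3, 0 were lower without CRS+IMQ replicate 2, and 1 without CRS+IMQ replicate 1 or IMQ replicate 3. With a CRS+IMQ library left out, Col6a6 and Col28a1 were not tested, and with an IMQ library left out, Col4a5 was not.

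**Figure D1:**
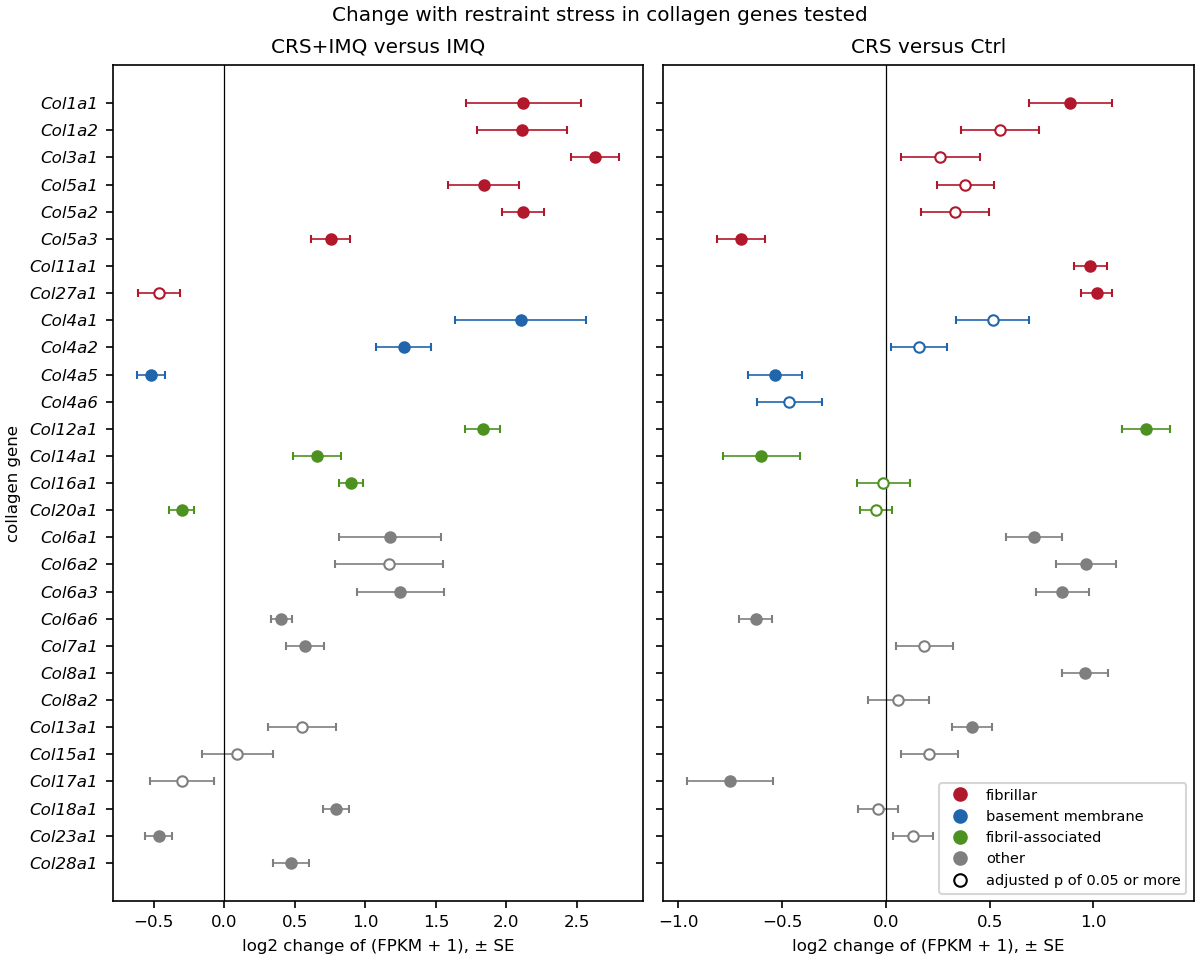
Log2 change of FPKM + 1 (horizontal axis, bars are ± SE) of each collagen gene tested in CRS+IMQ versus IMQ (left) and CRS versus Ctrl (right). Filled points have an adjusted p under 0.05; 17 were called higher and 3 lower on the left, and 9 higher and 5 lower on the right.

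Col3a1 (ENSMUSG00000026043, mm10 chromosome 1, 45311538 to 45349706, plus strand), the gene of type III collagen, had 605.1, 594.8 and 612.9 FPKM in CRS+IMQ, against 76.96, 124.5 and 95.07 in IMQ. All CRS+IMQ libraries lay far above all IMQ libraries. The log2 change was 2.63 ± 0.17 (SE, adjusted p = 0.000156), and the call held in the averaged fit (adjusted p = 0.03). Without imiquimod the gene had 220.2, 220.3 and 216.9 FPKM in CRS, against 212.3, 135.9 and 211 in Ctrl. These groups also did not overlap, but the log2 change of 0.26 ± 0.19 did not pass (adjusted p = 0.309).

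Col1a1 (ENSMUSG00000001506, mm10 chromosome 11, 94936224 to 94953042, plus strand), which codes for the alpha 1 chain of type I collagen, had 842.5, 865.5 and 832.8 FPKM in CRS+IMQ, against 104.5, 346.4 and 201.3 in IMQ. The IMQ libraries spread widely, with replicate 2 the highest. The log2 change was 2.12 ± 0.41 (adjusted p = 0.00956, or 0.189 in the averaged fit). Without imiquimod it had 426.8, 423.3 and 419.5 FPKM in CRS, against 307.3, 181.7 and 212.1 in Ctrl, a log2 change of 0.89 ± 0.20 (adjusted p = 0.0146). That call was lost without CRS replicate 1, 2 or 3, at adjusted p of 0.0516, 0.0515 and 0.0515. Col1a2, whose alpha 2 chain pairs with Col1a1 chains, had 289.4, 285.6 and 288.8 FPKM in CRS+IMQ, against 41.0, 105.7 and 65.92 in IMQ. Its log2 change was 2.11 ± 0.32 (adjusted p = 0.00388, or 0.128 in the averaged fit). In CRS it had 152.7, 152.4 and 156.2 FPKM, against 133.5, 80.2 and 106.9 in Ctrl, and the log2 change of 0.55 ± 0.19 missed the threshold (adjusted p = 0.055). Col1a2 passed in CRS versus Ctrl without Ctrl replicate 1 (adjusted p = 0.0159), and also with quantile normalization (0.0147), median-ratio scaling (0.0259) and array weights (0.0306).

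**Figure D2:**
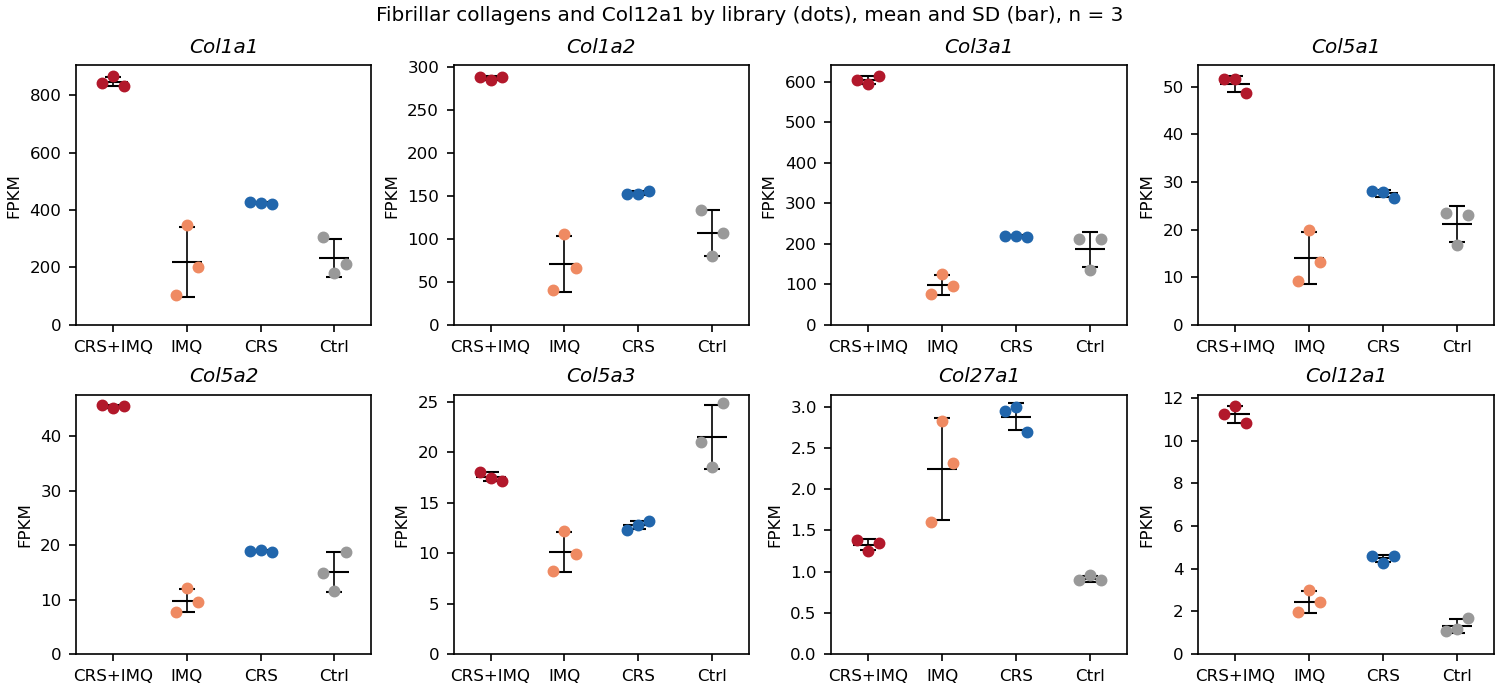
FPKM of 7 fibrillar collagen genes and Col12a1 in each library (dots) with the mean and SD (n = 3) of CRS+IMQ, IMQ, CRS and Ctrl skin. Col1a1 lies between 832.8 and 865.5 FPKM in CRS+IMQ and between 104.5 and 346.4 in IMQ, while Col27a1 is lowest in Ctrl.

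The minor fibrillar genes varied. Col5a2, a chain of type V collagen, had 45.69, 45.18 and 45.61 FPKM in CRS+IMQ, against 7.78, 12.1 and 9.64 in IMQ, a log2 change of 2.12 ± 0.15 (adjusted p = 0.0002, or 0.0352 in the averaged fit). Col5a1 averaged 50.6 ± 1.66 FPKM in CRS+IMQ and 14.1 ± 5.46 in IMQ, a log2 change of 1.84. Neither passed in CRS versus Ctrl, with adjusted p of 0.0651 for Col5a1 and 0.146 for Col5a2. In that comparison Col5a2 had 19.0, 19.1 and 18.8 FPKM in CRS, against 14.8, 11.6 and 18.8 in Ctrl, which overlapped. Col5a3 rose in CRS+IMQ relative to IMQ (log2 0.75 ± 0.14, adjusted p = 0.00757) and fell in CRS relative to Ctrl (log2 -0.70 ± 0.11, adjusted p = 0.00424). It had 18.1, 17.4 and 17.2 FPKM in CRS+IMQ, 8.26, 12.2 and 9.96 in IMQ, 12.3, 12.8 and 13.2 in CRS, and 21.0, 18.6 and 24.9 in Ctrl. Neither Col5a3 call held in the averaged fit, nor did the Col5a1 call.

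Col27a1 and Col11a1, fibrillar genes better known from cartilage, had higher values in CRS than in Ctrl. Both entered that test through the CRS libraries alone, so their p-values describe the values and do not support the difference. Col27a1 had 1.38, 1.25 and 1.35 FPKM in CRS+IMQ, against 1.60, 2.82 and 2.32 in IMQ, and the log2 change of -0.46 ± 0.15 missed the threshold (adjusted p = 0.0564). In CRS it had 2.94, 2.99 and 2.69 FPKM, against 0.893, 0.955 and 0.895 in Ctrl, a log2 change of 1.02 ± 0.08 (adjusted p = 0.000293, or 0.0375 in the averaged fit). The CRS mean was 3.14-fold the Ctrl mean, and no libraries overlapped. Col11a1 had 1.35, 1.16 and 1.21 FPKM in CRS, against 0.134, 0.148 and 0.112 in Ctrl, a log2 change of 0.99 ± 0.08 (adjusted p = 0.00036, or 0.0378 in the averaged fit). In CRS+IMQ it had 0.554, 0.511 and 0.512 FPKM, and in IMQ 0.273, 2.44 and 1.15, where it was not tested because too few libraries reached 1 FPKM. Markers of the growing hair follicle moved with them: all 7 of 7 were higher in CRS than in Ctrl, against 15.3% of all genes. Their summed FPKM was 6.61 to 8.35 in CRS+IMQ, 26.5, 695.5 and 297.4 in IMQ replicates 1, 2 and 3, 149.4 to 153.9 in CRS and 3.34 to 5.27 in Ctrl. At these sums no Ctrl library had all 7 at 1 FPKM, so some may have passed the filter through CRS alone. Col11a1 and Col27a1 were highest in the same IMQ library, replicate 2. This was not particular to them: replicate 2 was also the highest IMQ library for Col1a1, Col1a2, Col3a1, Col4a1 and Col6a1, among others, and the lowest for Col7a1 and Col17a1. Krt25 was the only hair follicle marker at 0 in any library, in 1 library, and the part of hair follicle cells in these collagen values was not tested.

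The start regions of 4 genes that differed in pattern are shown because Col3a1 and Col5a1 rose with stress under imiquimod while Col4a6 and Col27a1 did not. Each is the 250 bases before the RefSeq gene start on GRCm38.p6 (mm10), read 5′ to 3′ on the gene's strand. The Col27a1 window lies inside the GENCODE span of that gene (63214004 to 63334991), so another annotated start lies further upstream. Capitals mark TATAAA and also GGGCGG, which reads CCGCCC when it lies on the other strand. The motif CCAAT was searched as well, and is in none of the 4 windows. All were searched on both strands.
Col3a1, chr1:45311288-45311537, plus strand: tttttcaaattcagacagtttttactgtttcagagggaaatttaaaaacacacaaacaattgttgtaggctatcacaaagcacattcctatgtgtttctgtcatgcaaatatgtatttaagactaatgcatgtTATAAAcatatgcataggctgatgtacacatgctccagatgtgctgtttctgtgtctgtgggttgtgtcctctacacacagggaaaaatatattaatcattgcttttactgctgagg
Col5a1, chr2:27886175-27886424, plus strand: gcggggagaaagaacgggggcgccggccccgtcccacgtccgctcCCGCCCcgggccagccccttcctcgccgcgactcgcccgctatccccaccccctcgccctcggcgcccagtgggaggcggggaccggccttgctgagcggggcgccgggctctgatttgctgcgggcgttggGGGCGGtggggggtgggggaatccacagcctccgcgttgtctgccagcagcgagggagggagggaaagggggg
Col4a6, chrX:141474077-141474326, minus strand: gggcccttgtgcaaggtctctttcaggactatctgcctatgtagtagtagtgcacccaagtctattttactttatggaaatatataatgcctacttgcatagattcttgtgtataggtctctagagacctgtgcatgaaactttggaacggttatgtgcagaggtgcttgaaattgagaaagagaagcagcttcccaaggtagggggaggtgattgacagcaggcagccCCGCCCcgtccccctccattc
Col27a1, chr4:63215162-63215411, plus strand: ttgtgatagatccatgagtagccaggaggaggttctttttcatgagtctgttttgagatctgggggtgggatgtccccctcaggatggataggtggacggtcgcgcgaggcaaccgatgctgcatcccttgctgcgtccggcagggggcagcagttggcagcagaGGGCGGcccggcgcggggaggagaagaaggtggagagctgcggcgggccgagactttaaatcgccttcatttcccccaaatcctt
The Col3a1 window held TATAAA 117 bases before the start and no GGGCGG, while the GC-rich Col5a1 window held GGGCGG at 73 and 205 bases before it. Col4a6 held GGGCGG at 21 bases and Col27a1 at 85 bases before the start. Of the 35 collagen genes with a window, 20 held GGGCGG (57.1%, against 32.7% of 27025 windows of all genes), 11 held CCAAT (31.4%, against 34.2%) and 5 held TATAAA (14.3%, against 12.9%). Letters alone show neither binding nor use.

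Of the basement membrane genes, 3 were tested in CRS+IMQ versus IMQ: Col4a1 and Col4a2 rose, and Col4a5, which passed the filter through IMQ alone, was called lower. Col4a1 (ENSMUSG00000031502, mm10 chromosome 8, 11198423 to 11312826, minus strand) had 83.13, 92.62 and 85.76 FPKM in CRS+IMQ, against 11.47, 43.61 and 14.59 in IMQ. IMQ replicate 2 was the highest of its group, as for type I collagen, but still below every CRS+IMQ library. The log2 change was 2.10 ± 0.47 (adjusted p = 0.016, or 0.231 in the averaged fit). That call did not hold without CRS+IMQ replicate 1, 2 or 3, at adjusted p of 0.0555, 0.0617 and 0.0566, or without IMQ replicate 3 (0.0587). Col4a2 (ENSMUSG00000031503, mm10 chromosome 8, 11312805 to 11449287, plus strand), which codes for the partner chain, had 76.84, 81.25 and 78.48 FPKM in CRS+IMQ, against 24.57, 43.33 and 30.95 in IMQ, a log2 change of 1.27 ± 0.20 (adjusted p = 0.00415). The groups did not overlap for either gene. The Col4a2 call did not hold in the averaged fit either.

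Without imiquimod neither gene of the pair passed on the values as deposited, but Col4a1 did under other settings. Col4a1 had 38.11, 38.64 and 34.34 FPKM in CRS, against 21.11, 23.43 and 33.85 in Ctrl, with a log2 change of 0.51 ± 0.18 (adjusted p = 0.0576). Col4a2 had 38.91, 37.69 and 36.43 FPKM in CRS, against 29.74, 30.94 and 41.28 in Ctrl, with a log2 change of 0.16 ± 0.14 (adjusted p = 0.382). Ctrl replicate 3 was the highest control for both genes, and without it both passed, at adjusted p of 0.00202 for Col4a1 and 0.0109 for Col4a2. Col4a1 also passed with quantile normalization (0.0272), median-ratio scaling (0.0389) and array weights (0.038). Their annotated spans overlap by 22 bases at opposite-facing starts, and whether the counting used strand was not stated. The endothelial markers, of vessels that also carry type IV collagen, were higher in CRS+IMQ than in IMQ for 5 of 7 genes and lower for 0 (18.7% and 18.2% of all genes). In CRS relative to Ctrl they were higher for 1 and lower for 1 (15.3% and 28.4% of all genes). Their summed FPKM was 99.55 to 102.9 in CRS+IMQ, 58.49 to 73.02 in IMQ, 48.76 to 51.16 in CRS and 39.35 to 54.02 in Ctrl, none of the 7 was at 0, and their part in the Col4a1 and Col4a2 values was not tested.

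Col4a5 and Col4a6, which lie head to head 1308 bases apart on chromosome X, code for minor type IV chains. Col4a5 had 0.676, 0.554 and 0.713 FPKM in CRS+IMQ, 1.64, 1.24 and 1.23 in IMQ, 1.53, 1.54 and 1.19 in CRS, and 2.90, 2.70 and 1.97 in Ctrl. It fell in CRS relative to Ctrl (log2 -0.54 ± 0.13, adjusted p = 0.0186). In CRS+IMQ versus IMQ it passed the filter through IMQ alone, and its lower call there (log2 -0.52 ± 0.10, adjusted p = 0.00936) is a description. The call in CRS was lost without CRS replicate 3 (adjusted p in parentheses, 0.0651), Ctrl replicate 1 (0.0521) or Ctrl replicate 2 (0.0661), and that in CRS+IMQ without CRS+IMQ replicate 2 (0.0506). With an IMQ library left out, Col4a5 was not tested in CRS+IMQ versus IMQ. Col4a6 had 0.3799, 0.1994 and 0.423 FPKM in CRS+IMQ, 1.24, 1.05 and 0.997 in IMQ, 1.73, 1.82 and 1.58 in CRS, and 3.18, 3.25 and 1.95 in Ctrl. It stayed too low for the test in CRS+IMQ versus IMQ and missed the threshold in CRS versus Ctrl (log2 -0.47, adjusted p = 0.0528). Both genes were thus lowest in CRS+IMQ and highest in Ctrl, while Col4a1 and Col4a2 were highest in CRS+IMQ. Col4a4 had 0.363, 0.2795 and 0.293 FPKM in CRS+IMQ, 0.501, 0.555 and 0.433 in IMQ, 0.783, 0.616 and 0.664 in CRS, and 1.03, 0.851 and 1.08 in Ctrl, and was too low to be tested in any comparison.

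**Figure D3:**
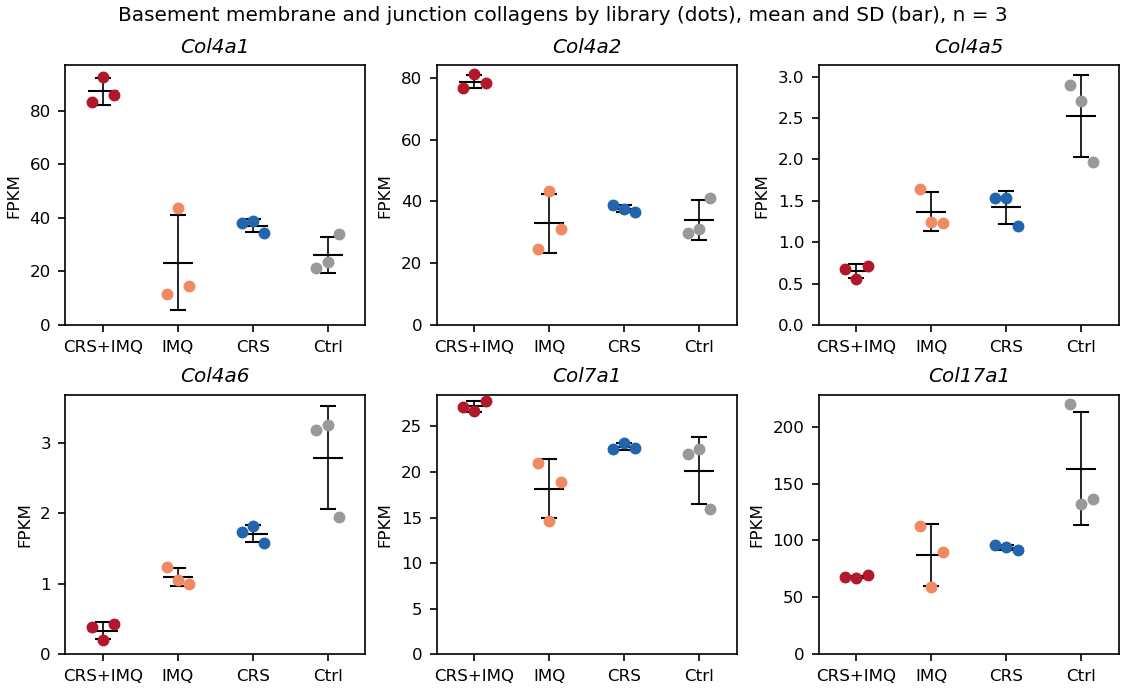
FPKM of 4 type IV collagen genes, Col7a1 and Col17a1 in each library (dots) with the mean and SD (n = 3) of CRS+IMQ, IMQ, CRS and Ctrl skin. Col4a1 and Col4a2 lie highest in CRS+IMQ, while Col4a5, Col4a6 and Col17a1 have their highest means in Ctrl.

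The junction genes Col7a1 and Col17a1 gave different calls. Col7a1, the gene of the anchoring fibril, had 27.13, 26.66 and 27.85 FPKM in CRS+IMQ, against 20.96, 14.64 and 18.89 in IMQ, a log2 change of 0.57 ± 0.13 (adjusted p = 0.0189). This call did not hold without CRS+IMQ replicate 1, 2 or 3 (adjusted p of 0.0687, 0.0657 and 0.0738) or without IMQ replicate 3 (0.0524). In CRS it had 22.5, 23.24 and 22.65 FPKM, against 21.96, 22.55 and 15.93 in Ctrl, which overlapped (adjusted p = 0.318, or 0.0312 with quantile normalization). Col17a1 (ENSMUSG00000025064, mm10 chromosome 19, 47646344 to 47692094, minus strand), the gene of the transmembrane collagen of basal keratinocytes, had 68.13, 67.17 and 69.16 FPKM in CRS+IMQ, against 112.9, 59.3 and 89.42 in IMQ. Here the IMQ libraries fell on both sides of the CRS+IMQ libraries, and the log2 change of -0.30 ± 0.23 did not pass (adjusted p = 0.334); without IMQ replicate 2 it was -0.55 and passed (adjusted p = 0.0116). In CRS it had 95.55, 94.18 and 91.55 FPKM, against 220.2, 132.1 and 136.8 in Ctrl, a log2 change of -0.75 ± 0.21 (adjusted p = 0.0276). The call in CRS was lost without CRS replicate 1, 2 or 3 (adjusted p of 0.0755, 0.0797 and 0.0857). Basal keratinocyte markers were lower in CRS than in Ctrl for 5 of 7 genes and higher for 1 (28.4% and 15.3% of all genes). In CRS+IMQ relative to IMQ they were higher for 2 and lower for 2 (18.7% and 18.2% of all genes). Their summed FPKM was 2945 to 3109 in CRS and 4045 to 6032 in Ctrl, against 10530 to 10680 in CRS+IMQ and 3355 to 4997 in IMQ. None of the 7 was at 0, and their part in the Col17a1 values was not tested.

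Fibril-associated collagens were led by Col12a1, which codes for a collagen on the surface of type I fibrils. It had 11.25, 11.62 and 10.83 FPKM in CRS+IMQ, against 1.97, 2.99 and 2.42 in IMQ, a log2 change of 1.83 ± 0.12 (adjusted p = 0.000165, or 0.0328 in the averaged fit). In CRS it had 4.58, 4.27 and 4.59 FPKM, against 1.07, 1.19 and 1.68 in Ctrl, a log2 change of 1.25 ± 0.11 (adjusted p = 0.000528, or 0.0466 in the averaged fit). Col12a1 was the only collagen gene called in both stress comparisons in the averaged fit. Col16a1 had 27.13, 27.76 and 27.64 FPKM in CRS+IMQ, against 13.11, 15.69 and 14.21 in IMQ (log2 0.90 ± 0.08, adjusted p = 0.000541), and 18.4, 19.6 and 19.3 FPKM in CRS, against 23.1, 19.0 and 16.3 in Ctrl (adjusted p = 0.949). Col14a1 rose in CRS+IMQ relative to IMQ (log2 0.66, adjusted p = 0.0267) and fell in CRS relative to Ctrl (log2 -0.60, adjusted p = 0.0415). It had 12.4, 11.5 and 10.4 FPKM in CRS+IMQ, 5.26, 8.58 and 7.14 in IMQ, 7.80, 9.30 and 9.45 in CRS, and 15.02, 10.31 and 17.2 in Ctrl. The first Col14a1 call was lost without CRS+IMQ replicate 1 (0.098), 2 (0.0884) or 3 (0.0616) or IMQ replicate 3 (0.0725). The second was lost without CRS replicate 1 (0.124), 2 (0.09) or 3 (0.0862) or Ctrl replicate 1 (0.11) or 3 (0.0829), and with quantile normalization (log2 -0.41, adjusted p = 0.139). Col20a1 fell slightly in CRS+IMQ relative to IMQ (log2 -0.30, adjusted p = 0.0421), with 1.03, 1.35 and 1.27 FPKM in CRS+IMQ against 1.83, 1.70 and 1.65 in IMQ. Without any 1 of the 6 libraries its adjusted p was 0.0587 to 0.148. It had 1.88, 1.95 and 1.75 FPKM in CRS, against 2.03, 2.001 and 1.85 in Ctrl, which overlapped (adjusted p = 0.639). The calls of Col16a1, Col14a1 and Col20a1 did not hold in the averaged fit.

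Among the other collagens, the type VI genes stood out by their level. Col6a1 had 172.9, 173.3 and 169.8 FPKM in CRS+IMQ, against 44.06, 128.3 and 75.86 in IMQ, a log2 change of 1.18 ± 0.36 (adjusted p = 0.0473). Col6a3 had 48.69, 47.47 and 49.03 FPKM in CRS+IMQ, against 12.41, 31.93 and 19.4 in IMQ, a log2 change of 1.25 ± 0.31 (adjusted p = 0.024). Col6a2 had nearly the same change (log2 1.17 ± 0.38) but missed the threshold (adjusted p = 0.0583). Without CRS+IMQ replicate 1, 2 or 3 or IMQ replicate 3, the calls were lost, with adjusted p of 0.125, 0.127, 0.121 and 0.118 for Col6a1 and 0.078, 0.076, 0.0782 and 0.0741 for Col6a3. Col6a1 was also lost with no filter (0.0896) and quantile normalization (0.0643). IMQ replicate 2 was again the highest of its group for all 3 genes. In CRS relative to Ctrl all 3 rose: Col6a1 by log2 0.72 ± 0.13, Col6a2 by 0.96 ± 0.14 and Col6a3 by 0.85 ± 0.13, with adjusted p of 0.00716, 0.00308 and 0.00332. Col6a3 had 36.1, 35.2 and 33.2 FPKM in CRS, against 18.2, 16.2 and 22.7 in Ctrl. Col6a2 had 67.3, 67.12 and 65.07 FPKM in CRS, against 31.71, 28.65 and 41.63 in Ctrl. The fourth expressed type VI gene, Col6a6, fell in CRS relative to Ctrl (log2 -0.63 ± 0.08, adjusted p = 0.00166). In CRS+IMQ versus IMQ it passed the filter through CRS+IMQ alone, and its higher call (log2 0.40 ± 0.08, adjusted p = 0.00888) is a description. Its values were 1.10, 1.08 and 1.29 FPKM in CRS+IMQ, 0.649, 0.619 and 0.613 in IMQ, 1.06, 1.16 and 1.19 in CRS, and 2.48, 2.13 and 2.3 in Ctrl. None of these type VI calls held in the averaged fit.

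Col18a1, whose protein is the source of endostatin, had 30.1, 34.8 and 34.3 FPKM in CRS+IMQ, against 17.4, 20.01 and 18.5 in IMQ (log2 0.79 ± 0.09, adjusted p = 0.00127). In CRS it had 15.1, 15.2 and 12.7 FPKM, against 14.7, 15.6 and 13.8 in Ctrl, which overlapped (adjusted p = 0.776). Col15a1, its closest relative, passed in neither comparison. Col23a1, a transmembrane collagen, had 3.64, 3.83 and 3.96 FPKM in CRS+IMQ, against 5.08, 6.36 and 5.57 in IMQ (log2 -0.47 ± 0.10, adjusted p = 0.0123), a call lost without CRS+IMQ replicate 1 (0.0594) or 2 (0.0539). Col8a1, which forms short-chain networks around vessels, had 1.73, 1.88 and 1.66 FPKM in CRS, against 0.323, 0.319 and 0.628 in Ctrl (log2 0.96 ± 0.11, adjusted p = 0.00116); it too passed the filter through CRS alone. So did Col13a1, called higher in CRS than in Ctrl (log2 0.42, adjusted p = 0.0154), and Col28a1, called higher in CRS+IMQ than in IMQ (log2 0.47, adjusted p = 0.0312), passed through CRS+IMQ alone. The calls of all 3 are descriptions. The calls of Col18a1, Col23a1, Col8a1, Col13a1 and Col28a1 did not hold in the averaged fit.

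In skin without imiquimod, collagen genes moved in both directions. Of 28 tested in CRS versus Ctrl, 9 were called higher, 5 lower and 14 did not pass. Of the 9, 4 (Col27a1, Col11a1, Col8a1 and Col13a1) passed the filter through CRS alone, and of the other 24 tested, 5 rose and 5 fell. Over all 13944 genes tested, 15.3% were called higher and 28.4% lower. By class, 3 of 8 fibrillar, 0 of 4 basement membrane, 1 of 4 fibril-associated and 5 of 12 other genes were called higher, and 1, 1, 1 and 2 lower. The median log2 change was 0.24 over the collagen genes and -0.09 over all genes. The split over all genes depended on scaling: 2131 were higher and 3955 lower as deposited, 3005 higher and 3286 lower with median-ratio scaling, and 3710 higher and 2886 lower with quantile normalization, where the all-gene median was 0.08. With quantile normalization 14 collagen genes were higher, and in the averaged fit 3 were higher (Col12a1, and Col27a1 and Col11a1 with the same limit of the filter) and 0 lower. Leaving out 1 library gave 4 to 13 higher and 2 to 5 lower. The count of higher genes was 4 without CRS replicate 1, 2 or 3. The count of lower genes was 2 without CRS replicate 3, and 3 without CRS replicate 1 or 2 or Ctrl replicate 1. With a CRS library left out, Col27a1, Col11a1, Col8a1 and Col13a1 were not tested, so they left the count of higher genes. In the authors' deposited table, with a q-value under 0.05, 14 collagen genes were higher and 4 lower in CRS versus Ctrl, and 19 were higher and 5 lower in CRS+IMQ versus IMQ.

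Whether stress acted differently with and without imiquimod was tested by the interaction over all 12 libraries. Of 29 collagen genes, 12 had a more positive change with imiquimod, 5 a more negative one, and 12 did not pass. Of the 5, Col8a1 passed the filter through CRS alone, so its call is a description. Over all 14864 genes, 28.1% were called in the positive and 21.2% in the negative direction. With quantile normalization the all-gene split turned to 3519 positive and 4622 negative calls, against 4172 and 3153 as deposited, and the median moved from 0.04 to -0.13. The averaged fit left 5 positive and 1 negative collagen calls: Col3a1, Col5a2, Col5a3, Col6a6 and Col18a1 positive, and Col27a1 negative. Col3a1 had the most positive difference, 2.37 ± 0.27 (adjusted p = 4.17e-05, or 0.0251 in the averaged fit). Col5a2 followed at 1.78 ± 0.23, Col4a1 at 1.59 ± 0.53 and Col1a2 at 1.56 ± 0.40. Col1a1 differed by 1.23 ± 0.49 and did not pass (adjusted p = 0.0569), although without IMQ replicate 2 it did (log2 1.65, adjusted p = 0.0038), as with median-ratio scaling (0.0491) and array weights (0.0201). Col4a1 lost its interaction call without any of CRS+IMQ replicate 1, 2 or 3, IMQ replicate 1 or 3, CRS replicate 1, 2 or 3, or Ctrl replicate 3, with adjusted p up to 0.0711, and also with no filter (0.0623) and quantile normalization (0.0601). Col12a1 lost its call with a pseudocount of 0.1 (log2 0.44, adjusted p = 0.155). Col8a2 lost its call without CRS+IMQ replicate 2 (0.0532), IMQ replicate 3 (0.0534) or Ctrl replicate 1 (0.0562), and Col7a1 passed without Ctrl replicate 3 (0.0196). Col27a1 and Col11a1 had the most negative differences, -1.48 ± 0.17 and -1.46 ± 0.38. The type VI genes Col6a1, Col6a2 and Col6a3, which rose in CRS, did not pass (adjusted p = 0.379, 0.73 and 0.387).

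The other axis, imiquimod, compares libraries from separate deposited tables, and the effect of imiquimod and any effect of table cannot be told apart. In unstressed skin the type I genes did not pass and Col3a1 fell. Of 25 tested in IMQ versus Ctrl, 2 were called higher, 6 lower and 17 did not pass, against 6.11% higher and 13.5% lower over all 13981 genes, and of the 25, Col27a1 passed the filter through IMQ alone and Col6a6 through Ctrl alone. Of the other 23, 1 rose and 5 fell. With quantile normalization the all-gene calls were 1458 higher and 1850 lower, against 854 and 1881 as deposited. The median log2 change was -0.41 over the collagen genes and 0.02 over all genes. Col12a1 rose (log2 0.58, adjusted p = 0.0472), and Col27a1 was called higher (log2 0.74, adjusted p = 0.0206). Col5a3 fell by 1.02 on the log2 scale, Col14a1 by 0.92, Col3a1 by 0.91, Col4a6 by 0.84 and Col4a5 by 0.57, and Col6a6 was called lower at log2 -1.02. The calls of Col27a1 and Col6a6 are descriptions, as they entered through their higher group alone. Leaving out 1 library gave 0 or 1 higher and 1 to 6 lower; 0 were higher without IMQ replicate 2 or 3 or Ctrl replicate 1 or 2, 1 was lower without Ctrl replicate 1, 2 were lower without IMQ replicate 3 and 3 without Ctrl replicate 2. Col12a1 was lost without IMQ replicate 2 (0.101) or 3 (0.133) or Ctrl replicate 1 (0.152) or 2 (0.157). Col27a1 was lost without Ctrl replicate 1 (0.0746), 2 (0.0754) or 3 (0.0553), and with an IMQ library left out it was not tested. Col3a1, at an adjusted p of 0.0478, was lost without IMQ replicate 1 (0.102) or 3 (0.141) or Ctrl replicate 1 (0.147) or 3 (0.113) and with quantile normalization (0.0549). Col14a1 was lost without IMQ replicate 1 (0.068) or 3 (0.0979) or Ctrl replicate 1 (0.118) or 3 (0.0915), Col4a5 without IMQ replicate 2 (0.0884) or 3 (0.138) or Ctrl replicate 1 (0.129) or 2 (0.14), and Col4a6 without IMQ replicate 3 (0.0679) or Ctrl replicate 1 (0.0681) or 2 (0.0736). Col5a3 kept its call without any 1 library. Col6a6 kept its call with any 1 IMQ library left out, but with a Ctrl library left out it was not tested. Col4a1 passed as lower only without IMQ replicate 2 (log2 -0.93, adjusted p = 0.0495). Col1a1 averaged 217.4 ± 122 FPKM in IMQ and 233.7 ± 65.5 in Ctrl (SD, n = 3 each), which overlapped (adjusted p = 0.738). Col17a1 had a log2 change of -0.90 and did not pass (adjusted p = 0.079), with no overlap between the groups; with all 12 libraries in 1 fit it did (0.0114).

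In stressed skin nearly every collagen gene was called between CRS+IMQ and CRS. Of 29 tested, 18 were called higher, 10 lower and only Col6a6 did not pass, against 35% higher and 25.9% lower over all 14021 genes. Of the 10, 5 (Col8a2, Col4a6, Col4a5, Col8a1 and Col11a1) passed the filter through CRS alone, and of the other 24 tested, 18 rose and 5 fell. With quantile normalization 3698 genes were higher and 4867 lower, against 4910 and 3626 as deposited, and the median of all genes moved from 0.06 to -0.07. The collagen median was 0.34. Both groups here had the small spread between libraries described above, and in the averaged fit only Col18a1 rose (adjusted p = 0.0178) and only Col23a1 fell (adjusted p = 0.0433). That averaged fit also took in the IMQ and Ctrl libraries, which alone gave its spread. On the CRS+IMQ and CRS libraries as deposited, Col3a1 rose by 1.46 ± 0.03, Col5a2 by 1.22 ± 0.03, Col4a1 by 1.21 ± 0.06, Col12a1 by 1.16 ± 0.05, Col18a1 by 1.15 ± 0.09, Col4a2 by 1.05 ± 0.04 and Col1a1 by 0.999 ± 0.028 on the log2 scale. Col23a1 fell by 1.04 on the log2 scale, with 3.64, 3.83 and 3.96 FPKM in CRS+IMQ, against 9.06, 8.5 and 9.14 in CRS. Of the genes that entered through CRS alone, Col8a2 had 0.409, 0.182 and 0.337 FPKM in CRS+IMQ, against 3.55, 3.61 and 3.48 in CRS (log2 -1.80), and Col4a6 had a log2 change of -1.03; both calls are descriptions. Quantile normalization ended the calls of Col6a1, Col6a2, Col7a1 and Col14a1 (adjusted p = 0.305, 0.233, 0.196 and 0.126). Without CRS replicate 1, 2 or 3 the count of lower genes was 4, 4 and 5. The 5 genes that entered through CRS alone were not tested there, so they left this count. Col14a1 was lost without CRS+IMQ replicate 1 (0.0638) or 2 (0.06).

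Ratios between genes within a library do not depend on the library's scale. The 6 ratios and 4 comparisons gave 24 exact two-sided permutation tests, where 3 libraries against 3 cannot go below p = 0.1. The Col1a1 to Col1a2 ratio was 2.94 ± 0.0781 in CRS+IMQ, 2.96 ± 0.374 in IMQ, 2.75 ± 0.0587 in CRS and 2.18 ± 0.174 in Ctrl. It was thus lowest in untreated skin, where all Ctrl libraries lay below those of CRS and of IMQ (exact p = 0.1 each, 0.141 adjusted over the 24). The Col3a1 to Col1a1 ratio was 0.714 ± 0.0247 in CRS+IMQ, 0.523 ± 0.194 in IMQ, 0.518 ± 0.00227 in CRS and 0.811 ± 0.162 in Ctrl. CRS lay below both CRS+IMQ and Ctrl without overlap (exact p = 0.1 each, 0.141 adjusted), while CRS+IMQ and IMQ overlapped (exact p = 0.4, 0.457 adjusted). For the partner genes of type IV collagen, the Col4a1 to Col4a2 ratio was 1.08, 1.14 and 1.09 in CRS+IMQ, 0.467, 1.01 and 0.471 in IMQ, 0.979, 1.03 and 0.943 in CRS, and 0.71, 0.757 and 0.82 in Ctrl. IMQ replicate 2 again stood apart from the other 2 libraries of its group. The Col7a1 to Col17a1 ratio was 0.399 ± 0.00306 in CRS+IMQ, 0.215 ± 0.0308 in IMQ, 0.243 ± 0.0067 in CRS and 0.129 ± 0.0371 in Ctrl, with no overlap in any of the 4 comparisons (exact p = 0.1 each, 0.141 adjusted). The Col6a1 to Col6a2 ratio was 2.10 ± 0.0476 in CRS+IMQ, 2.11 ± 0.0958 in IMQ, 1.997 ± 0.0246 in CRS and 2.40 ± 0.0992 in Ctrl. The Col5a1 to Col1a1 ratio was 0.0598 ± 0.00137 in CRS+IMQ, 0.0701 ± 0.0156 in IMQ, 0.0651 ± 0.00137 in CRS and 0.0925 ± 0.016 in Ctrl, and CRS lay below Ctrl without overlap.

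**Figure D4:**
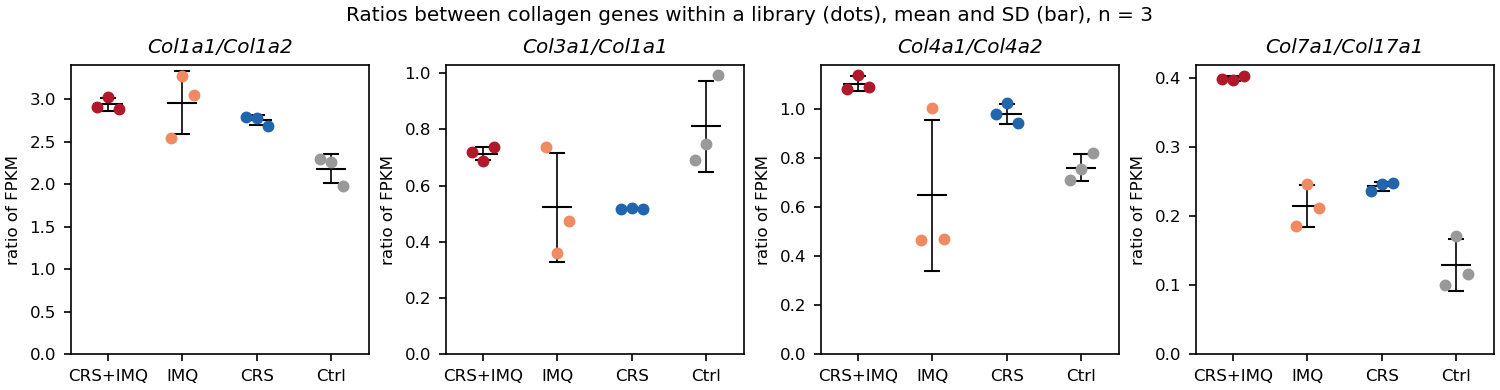
Ratios of FPKM between collagen genes within each library (dots) with the mean and SD (n = 3) of CRS+IMQ, IMQ, CRS and Ctrl skin. Col7a1 relative to Col17a1 averaged 0.399 in CRS+IMQ and 0.129 in Ctrl, and IMQ replicate 2 stands apart in Col4a1 relative to Col4a2.

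Genes that make and process collagen rose in CRS+IMQ relative to IMQ for 21 of 28 tested and fell for 0, with a median log2 change of 0.83 (18.7% of all genes higher, all-gene median -0.07). In the averaged fit 6 were higher, and 12, 12, 13 and 13 were higher without CRS+IMQ replicate 1, 2 or 3 or IMQ replicate 3. Lox, a lysyl oxidase that starts the cross-links, averaged 38.3 ± 0.661 FPKM in CRS+IMQ and 3.62 ± 0.483 in IMQ (log2 3.09 ± 0.09, adjusted p = 1.60e-05). Adamts2, which trims the amino end of procollagens, rose by log2 2.10 and Loxl1, a second lysyl oxidase, by log2 1.77. In CRS relative to Ctrl, 5 of the 28 rose and 8 fell, with a median of -0.11, shares close to those over all genes (15.3% higher and 28.4% lower). Quantile normalization gave 8 and 6 with a median of 0.09, and 0 were called in the averaged fit. Lox did not pass there, with 6.63 ± 0.274 FPKM in CRS and 6.33 ± 0.837 in Ctrl (adjusted p = 0.65). Loxl1 fell by 1.10 on the log2 scale and Pcolce2, an enhancer of procollagen trimming, by 1.33, while P4ha3, a subunit of a prolyl hydroxylase, rose by 1.28. Without CRS replicate 1, 2 or 3 or Ctrl replicate 2, the number that rose was 2, 3, 2 and 3. In IMQ relative to Ctrl, 0 of 26 rose and 12 fell (5, 7 and 5 without Ctrl replicate 1, Ctrl replicate 2 or IMQ replicate 3), against 6.11% of all genes higher and 13.5% lower. Between CRS+IMQ and CRS, 21 of 28 rose and 2 fell (35% and 25.9% over all genes), but in the averaged fit only 2 were higher and 0 lower.

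Genes of proteins that bind collagen fibrils were mostly called higher in CRS+IMQ than in IMQ, while in CRS 7 of 13 were called lower than in Ctrl. In CRS+IMQ relative to IMQ, 12 of 14 rose and 0 fell (median 1.41; 18.7% of all genes higher; 6 higher in the averaged fit), led by Thbs2, a matricellular protein, at log2 3.28, and the small proteoglycans Lum at 2.29 and Dcn at 2.27. In CRS relative to Ctrl, 2 of 13 rose and 7 fell (median -0.62), against 15.3% of all genes higher and 28.4% lower, and 0 were called in the averaged fit. Without CRS replicate 1, 2 or 3 or Ctrl replicate 1 or 2, 1 rose. Dcn averaged 53.3 ± 0.438 FPKM in CRS and 145.4 ± 32 in Ctrl (log2 -1.40 ± 0.17, adjusted p = 0.00159), and Fn1, the gene of fibronectin, averaged 9.53 ± 1.96 in CRS and 33.6 ± 7.42 in Ctrl (log2 -1.71, adjusted p = 0.00137). Collagen genes went both ways in the same comparison, with Col1a1, Col6a1, Col6a2, Col6a3 and Col12a1 higher and Col5a3, Col14a1, Col17a1, Col6a6 and Col4a5 lower, beside those that entered through CRS alone. In IMQ relative to Ctrl 0 of 13 rose and 8 fell (13.5% of all genes lower). Between CRS+IMQ and CRS, 11 of 13 rose and 0 fell (35% of all genes higher), or 4 of 14 in the averaged fit. Fibroblast markers, 3 of which (Lum, Dcn and Dpt) are also in the fibril-binding list, were counted too: 11 of 12 were higher and 0 lower in CRS+IMQ than in IMQ (18.7% of all genes higher), and 0 were higher and 8 lower in CRS than in Ctrl (28.4% of all genes lower). In the averaged fit 3 were higher in CRS+IMQ than in IMQ and 1 was lower in CRS than in Ctrl. Their summed FPKM was 803.7 to 824.3 in CRS+IMQ, 333.5 to 372 in IMQ, 408.4 to 452.5 in CRS and 665.1 to 893.7 in Ctrl. None of the 12 was at 0 in any library, and their part in the collagen values was not tested.

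**Figure D5:**
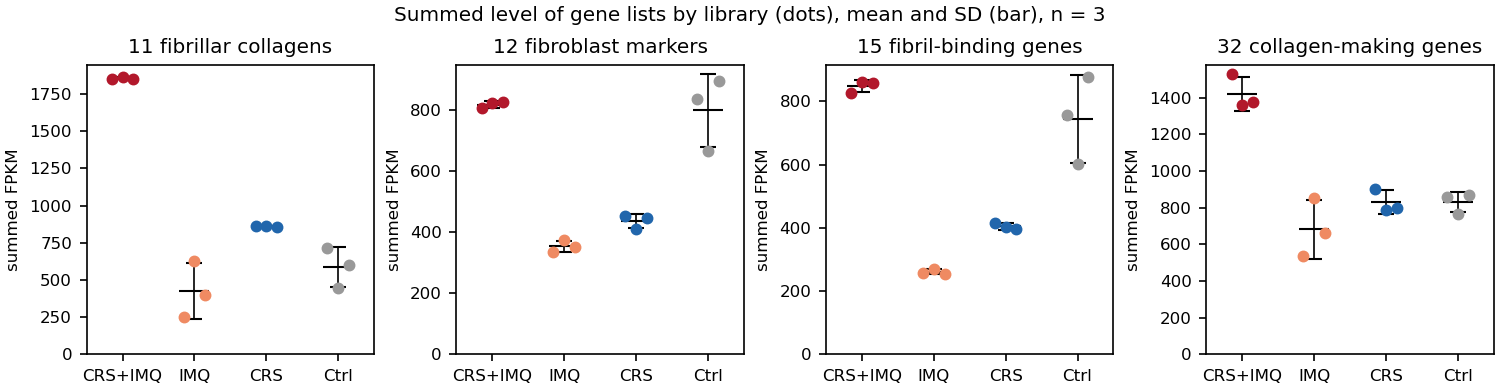
Summed FPKM of the 11 fibrillar collagens, 12 fibroblast markers, 15 fibril-binding genes and 32 collagen-making genes in each library (dots) with the mean and SD (n = 3) of CRS+IMQ, IMQ, CRS and Ctrl skin. Fibrillar collagens in CRS lie above Ctrl, while fibroblast markers in CRS lie below Ctrl, at 408.4 to 452.5 against 665.1 to 893.7 FPKM.

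The summed fibrillar collagens themselves averaged 1856 ± 7.2 FPKM in CRS+IMQ, 425.8 ± 189.9 in IMQ, 860.6 ± 4.22 in CRS and 586.4 ± 134 in Ctrl (SD, n = 3 each). CRS lay above Ctrl for these collagens and below it for the fibroblast markers. The marker counts that follow stand beside shares over all genes. These were 18.7% higher and 18.2% lower in CRS+IMQ relative to IMQ, and 15.3% higher and 28.4% lower in CRS relative to Ctrl. Counts in the averaged fit are not given for these markers. Markers of myofibroblasts and smooth muscle were higher in CRS than in Ctrl for 5 of 6 genes and lower for 0, and in CRS+IMQ than in IMQ higher for 2 and lower for 1, with summed FPKM of 1013 to 1022 in CRS+IMQ, 1110 to 1519 in IMQ, 1227 to 1294 in CRS and 483.2 to 712.2 in Ctrl. Skeletal muscle markers summed to 11290 to 11490 in CRS+IMQ, 18980 to 26820 in IMQ, 38390 to 39560 in CRS and 10600 to 23870 in Ctrl, and macrophage markers to 664.5 to 670.8, 94.69 to 137.6, 104.1 to 113.3 and 518.3 to 768.5 in the same order of groups. In CRS+IMQ relative to IMQ, skeletal muscle markers were higher for 0 and lower for 7 of 7, and macrophage markers higher for 6 of 6; in CRS relative to Ctrl, 4 and 1 of the muscle markers were higher and lower, and macrophage markers were lower for 6 of 6. Suprabasal keratinocyte markers were higher for 0 and lower for 2 of 5 in CRS+IMQ relative to IMQ, and lower for 5 of 5 in CRS relative to Ctrl. Adipocyte markers were higher for 4 and lower for 1 of 6 in CRS+IMQ relative to IMQ, where most collagen genes rose, and higher for 0 and lower for 1 in CRS relative to Ctrl. Schwann cell markers were higher for 1 and lower for 3 of 5 in CRS+IMQ relative to IMQ, and higher for 2 and lower for 1 in CRS relative to Ctrl. Of the dermal papilla markers 2 could be tested, and 0 were called higher and 2 lower in CRS+IMQ relative to IMQ, while 1 was called higher in CRS relative to Ctrl. All 5 listed summed to 1.75 to 1.99 FPKM in CRS+IMQ, so no library there had both tested genes at 1 FPKM. They may have passed the filter through IMQ alone, so the lower calls are no support for a change. Of 4 chondrocyte markers 1 was tested and fell in CRS+IMQ relative to IMQ, 1 of 2 rose in CRS relative to Ctrl, and Matn3 was at 0 in 8 libraries. The part of these cell types in the collagen values was not tested.

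Laminins and the other partners of type IV collagen were mixed. In CRS+IMQ relative to IMQ 9 of 19 rose and 2 fell (median 0.49), against 18.7% of all genes higher and 18.2% lower. The averaged fit left 1 higher and 0 lower, and 1 fell without CRS+IMQ replicate 2. Agrn, the gene of agrin, fell by 0.99 on the log2 scale. In CRS relative to Ctrl 4 rose and 5 fell, shares near the 15.3% higher and 28.4% lower over all genes, with 1 higher and 0 lower in the averaged fit (5 and 3 with quantile normalization; 3 fell without CRS replicate 1 or 3 or Ctrl replicate 1). Lamc3, a laminin chain, was higher by log2 1.45. In IMQ relative to Ctrl 1 rose and 2 fell, also near the 6.11% and 13.5% over all genes, and without Ctrl replicate 1 or IMQ replicate 3 none was called. Stressed skin gave 12 higher and 6 lower in CRS+IMQ relative to CRS (35% and 25.9% over all genes), but the averaged fit left 1 higher and 0 lower. Of the collagen receptors, 5 of 7 rose and 1 fell in CRS+IMQ relative to IMQ (2 and 0 in the averaged fit; 18.7% and 18.2% of all genes), among them Itga11, an integrin chain that binds fibrillar collagen (log2 1.43), while Ddr1 fell by 0.68 on the log2 scale. In CRS relative to Ctrl 0 of 6 rose and 4 fell (0 in the averaged fit; 28.4% of all genes lower), with Itga11 lower by 1.24 on the log2 scale. In IMQ relative to Ctrl 0 of 6 receptors rose and 3 fell (13.5% of all genes lower), with 1 lower without Ctrl replicate 1, 2 or 3 or IMQ replicate 3. For receptors in CRS+IMQ relative to CRS, 6 of 7 rose and 1 fell, or 1 and 0 in the averaged fit (35% and 25.9% of all genes).

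Genes of the TGF-beta pathway, whose ligands induce collagen genes in fibroblasts, moved in both directions. In CRS+IMQ relative to IMQ 6 of 17 rose and 1 fell (18.7% and 18.2% over all genes), or 2 and 0 in the averaged fit. The gene that fell was not called without CRS+IMQ replicate 1, 2 or 3 or IMQ replicate 3, and 2 fell without IMQ replicate 2. In CRS relative to Ctrl 4 rose and 3 fell (15.3% and 28.4% over all genes), or 1 and 0 in the averaged fit, 8 higher with median-ratio scaling, and 9 and 3 with quantile normalization. Tgfbr2, a receptor chain, rose in CRS+IMQ relative to IMQ (log2 1.43) and fell in CRS relative to Ctrl by 0.98 on the log2 scale. In IMQ relative to Ctrl 3 rose and 3 fell, against 6.11% and 13.5% over all genes, with 1 of each without Ctrl replicate 1 or 2 and 1 higher without IMQ replicate 3. In CRS+IMQ relative to CRS 6 rose and 6 fell, against 35% and 25.9% over all genes, and 0 were called in the averaged fit. In the interaction, calls in the positive and negative direction numbered 17 and 0 of 28 for collagen making, 11 and 0 of 14 for fibril binding, 11 and 5 of 19 for basement membrane partners, 5 and 0 of 7 for receptors, 4 and 4 of 17 for TGF-beta and 11 and 0 of 12 for fibroblast markers, against 28.1% and 21.2% over all genes. In the averaged fit they numbered 9 and 0, 9 and 0, 3 and 2, 3 and 0, 4 and 0, and 9 and 0, in the same order of lists.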

How the data were processed

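Total RNA of dorsal skin was sequenced in 12 libraries, 3 in each of 4 groups. The authors deposited FPKM per gene in 2 tables, CRS with Ctrl in the first and CRS+IMQ with IMQ in the second. The submitters' processing notes name StringTie, edgeR, limma and the build mm10, without versions or roles, and the aligner is not given in the sources used here. Each deposited table also holds the authors' log2 fold changes and their p-value and q-value columns, of which only the counts of q-values under 0.05 are printed. No counts of reads were used here, so depth was estimated from the spacing of low values, searched between 12 and 30 in units of 1000000 fragments, where 34.4 to 37.5% of low values came within 0.05 of a whole number of fragments.

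Values of 0.0001 or less were read as 0. Genes of at least 1 FPKM in at least 3 libraries of a fit were tested on log2(FPKM + 1) with limma 3.58.1 (R 4.3.3, statmod 1.5.0; trend and robust options), which understates changes of low genes. The 4 pairwise comparisons used the 6 libraries of their groups, and the interaction used all 12. For CRS+IMQ versus CRS the averaged fit also took in the IMQ and Ctrl libraries, which alone gave its spread, and tested 14864 genes. Every adjusted p printed beside a gene comes from limma, with Benjamini-Hochberg adjustment over all genes tested. The script was tested on simulated data. Ratios were compared by exact permutation with scipy 1.17.1 under Python 3.11.15.

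Every collagen gene is accounted for. Values in every library are given for Col1a1, Col1a2, Col3a1, Col4a1, Col4a2, Col7a1 and Col17a1, and for up to 2 called members per class, direction and comparison with the largest change, no overlap between groups and a mean of at least 1 FPKM, in the groups of that comparison. Of other lists, up to 3 called genes per comparison with the smallest p could be named; Lox and others so named are also followed into other comparisons, and some genes of these lists are not reported here. The collagen genes and all lists were chosen with earlier results of these data known. Promoter windows are RefSeq's on GRCm38.p6, and 35 of 44 genes had one. Where a gene had more than 1 window, the first by position was used. Alternatives were another pseudocount, other filters, quantile normalization, median-ratio scaling, array weights, a replicate block, 1 fit of all 12 libraries, leaving out each library, and the averaged fit, in which the libraries of a stressed group enter as their mean.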

Additional observations from a re-analysis of the deposited data

Results flagged for a closer look

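The effect of stress in imiquimod-treated skin (CRS+IMQ minus IMQ) differed from its effect in skin without imiquimod (CRS minus Ctrl) for 17 collagen genes, by the interaction term of limma with an adjusted p under 0.05 over all genes. In the positive direction, on the log2 scale, Col3a1 by 2.37, Col5a2 by 1.78, Col4a1 by 1.59, Col1a2 by 1.56, Col5a1 by 1.45, Col5a3 by 1.45, Col14a1 by 1.26, Col4a2 by 1.11, Col6a6 by 1.03, Col16a1 by 0.91, Col18a1 by 0.83 and Col12a1 by 0.58 differed. In the negative direction, Col27a1 by -1.48, Col11a1 by -1.46, Col8a2 by -1.12, Col8a1 by -0.76 and Col23a1 by -0.60 differed. Col8a1 passed the filter through CRS alone, so its call is a description and no support for a difference. In the averaged fit, Col3a1, Col5a2, Col5a3, Col6a6, Col18a1 and Col27a1 passed. Groups of 3 libraries are too small for a test of single outlying samples.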

How the results depend on the processing

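Changes were followed gene by gene under the alternatives for the 25 collagen genes picked for printed library values. No called log2 change of these 25 changed sign under any alternative run, but calls were lost. The cause was not tested unless fewer samples or genes were used. The calls lost, listed next, are those of these 25 genes alone, and other called collagen genes were not followed. Of called values, 57 of 71 lost their call in the averaged fit, 79 of 531 on leaving out 1 library, 10 of 79 with no filter, 9 of 79 with quantile normalization, 9 of 63 with all 12 libraries in 1 fit, and 2 or fewer under each of median-ratio scaling, the filter on the mean, array weights and the pseudocount of 0.1. A gene that passed the filter through 1 group alone was not tested without a library of that group. Such cases are in neither the 79 nor the 531, but they lower the counts that follow. In CRS+IMQ versus IMQ, 17 genes were higher (3 in the averaged fit, 10 to 19 leaving out 1 library) and 3 lower (6 with all 12 libraries in 1 fit, 0 in the averaged fit, 0 to 2 leaving out 1 library). In CRS versus Ctrl, 9 were higher (14 with quantile normalization, 3 in the averaged fit, 4 to 13 leaving out 1 library) and 5 lower (3 with no filter, 0 in the averaged fit, 2 to 5 leaving out 1 library). In IMQ versus Ctrl, 2 were higher (1 with the filter on the mean, 1 with no filter, 4 with all 12 libraries, 0 to 1 leaving out 1 library) and 6 lower (3 with no filter, 10 with all 12 libraries, 1 to 6 leaving out 1 library). In CRS+IMQ versus CRS, 18 were higher (11 with all 12 libraries, 1 in the averaged fit) and 10 lower (1 in the averaged fit, 4 to 10 leaving out 1 library). In the interaction, 12 were positive (5 in the averaged fit) and 5 negative (3 with the filter on the mean, 1 in the averaged fit). Changes that were not called were followed only for Col1a1, Col1a2, Col3a1, Col4a1, Col4a2, Col7a1 and Col17a1, and turned sign in IMQ versus Ctrl only. There Col1a1 ranged between -0.65 and 0.21 on leaving out 1 library, and Col4a2 between -0.28 and 0.12, with 0.0125 under quantile normalization. Over all genes, the averaged fit called 821 in CRS+IMQ versus IMQ (5162 otherwise), 838 in CRS versus Ctrl (6086), 1120 in CRS+IMQ versus CRS (8536) and 2422 in the interaction (7325), and all 12 libraries in 1 fit called 5312 in IMQ versus Ctrl (2735).

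Correlations of same-numbered deviations lay between -0.1254 and 0.0385. They gave no sign of pairing by replicate number, but groups of 3 libraries with little spread in the stressed groups cannot exclude it. A replicate block ended 9 of the 79 calls of the 25 genes followed and gained 1, and left 1 higher collagen gene in IMQ versus Ctrl. Over all genes it called 3974 in CRS+IMQ versus IMQ, 4811 in CRS versus Ctrl, 2049 in IMQ versus Ctrl, 7882 in CRS+IMQ versus CRS and 7062 in the interaction. The 14 genes under 1 FPKM were kept out of the tests by the filter of 1 FPKM, and genes at that level in 1 group could enter through the other group alone. Whether depth limits them was not tested.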
